A study of Mus musculus with 24 samples.

Results

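Wild-type lumbar dorsal root ganglia taken 1 day after a sciatic nerve lesion were compared with wild-type naive ganglia by RNA-seq. The comparison takes 6 of the series' 24 samples, chosen by the titles of their columns in the count table, with 3 libraries per group. It covers every gene that passed a filter on low counts, 13291 of the 24421 in the table. Both groups are labelled C57BL/6, wild type and L4/5 DRG (dorsal root ganglion), and the lesioned libraries are titled SNLD1, which the series' design text gives as sciatic nerve injury, day 1. No age is labelled. The treatment field is the same for every library and gives a sham operation or a nerve crush as alternatives, so whether the naive mice had a sham operation was not settled here. Other samples used below are 6 libraries of Mettl14cKO ganglia (labelled as a Mettl14 conditional knockout), 4 input libraries of an m6A pulldown series in wild-type ganglia, and 1 miCLIP list of m6A sites for each condition. The inputs were fitted together with the pulldown libraries of that series. The labels do not say that libraries came from separate animals or whether ganglia were pooled, so p-values measure the spread between these libraries, which may be technical.

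A dorsal root ganglion holds the cell bodies of sensory neurons whose axons run in the peripheral nerve, each body wrapped by satellite glia, with Schwann cells, macrophages, fibroblasts and vessels around them. When the axon is interrupted, signals carried back from the lesion are known to switch on transcription factors such as Atf3, Jun and Sox11 in the cell body, followed by cytokines, neuropeptides and growth-cone proteins, while some genes of the resting sensory neuron are turned down. Glia and immune cells of the ganglion also react, and interferon and JAK-STAT signalling can act in several of these cells.

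In all, 126 genes were higher and 10 were lower in lesioned ganglia (edgeR quasi-likelihood test, Benjamini-Hochberg adjusted p under 0.05), which is 0.948% and 0.0752% of the genes tested. A gene so called is said here to have risen or fallen, and levels are CPM, counts per 1000000 of the TMM-adjusted library total. None of these 136 genes overlapped between the groups, in a table where 6.08% of all genes lay wholly higher and 4.95% wholly lower. Without adjustment, 4.84% of genes had p under 0.05 in the higher and 2.51% in the lower direction. The changes were mostly moderate: 13 of the 126 rose by 3 or more on the log2 scale, 25 by 2 to 3, 56 by 1 to 2 and 32 by less than 1. Together the 126 genes summed to between 4061.8 and 4481.3 CPM in the naive libraries and between 10752.5 and 12108.4 CPM in the lesioned ones. Flrt3 made up 11.5% of that summed rise, Serpinb1a 9.54%, Ifit1 5.81%, Atf3 5.23% and Cnst 5.13%, and the 10 largest contributors made up 50.6%. The median of all genes tested was −0.01 on the log2 scale, with 6265 of 13291 above 0. Leaving out naive library 1 took the higher count from 126 to 60, leaving out naive library 3 took it to 63, and leaving out SNLD1 library 3 to 74. Each of these omissions took the lower count from 10 to 1, and omitting SNLD1 library 1 or 2 took it to 2 or 5. The call held without each library in turn for 51 of the 126 genes that rose and for 0 of the 10 that fell.

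**Figure D1:**
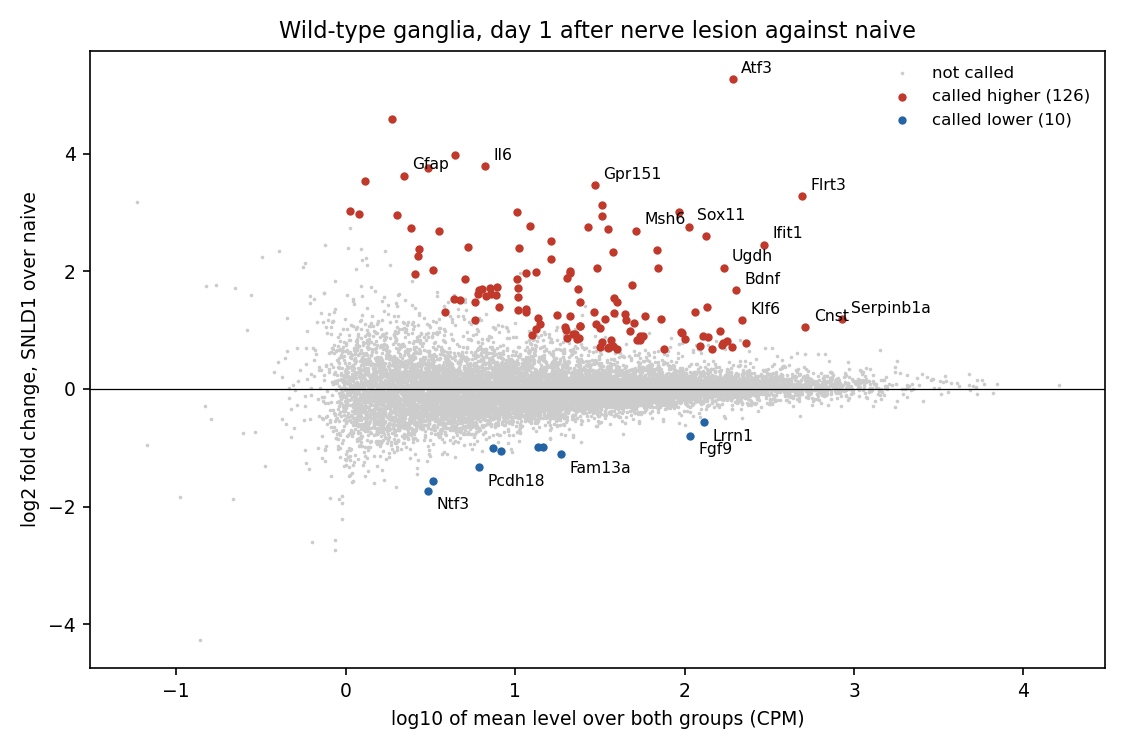
Log2 fold change of SNLD1 over naive (vertical axis) against the log10 of the mean level in CPM over both groups (horizontal axis) for all 13291 genes tested. Red points are the 126 genes called higher, blue points the 10 called lower and grey points the rest: the genes that rose reach 5.27 (Atf3), while the genes that fell lie between −0.57 (Lrrn1) and −1.73 (Ntf3).

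The 6 libraries held between 6630850 and 12639160 counts. Naive library 3 and SNLD1 library 1 held no counts of Y-linked genes, and the other 4 held between 378.6 and 451.8 per 1000000 raw counts, so each group had 1 library without Y-linked RNA. SNLD1 library 3 was the highest lesioned library for 78 of the 126 genes that rose, SNLD1 library 2 for 26 and SNLD1 library 1 for 22. The summed level of neuronal identity markers overlapped between groups. The 28 pan-neuronal genes came to between 24130 and 25334 CPM in naive and between 22998 and 25608 CPM in lesioned libraries. Gene by gene, library 2 was the lowest of its group for 18 of the 28 in naive and 20 in lesioned ganglia. None of the 28 was called by edgeR, and DESeq2 called Isl1 lower. Markers of monocytes and neutrophils (20 tested) were uneven within both groups, with 575, 1855 and 302 CPM in the naive and 478, 2139 and 551 CPM in the lesioned libraries 1, 2 and 3, and no member passed the test. In whole ganglia, fewer cells of a type and less RNA per cell cannot be told apart.

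Transcription factors included the gene with the highest log2 fold change, Atf3. This basic leucine zipper (bZIP) factor of the ATF/CREB family, induced by stress and axotomy, stood at 8.51, 9.41 and 11.1 CPM in naive and 379.6, 243 and 505 CPM in SNLD1 libraries (log2 5.27, SE 0.27, adjusted p = 2.49e-09). The naive values lay close together and far below all 3 lesioned ones, of which SNLD1 library 2 was the lowest. Sox11, an SRY-box factor of developing neurons, read 37.9, 23.999 and 19.99 CPM in naive and 166, 149.9 and 239 CPM in SNLD1 libraries (log2 2.76, SE 0.26, adjusted p = 4.68e-06), again with SNLD1 library 3 highest. Klf6, a Kruppel-like factor linked to axon growth, had 155, 135 and 114 CPM in naive and 264, 243 and 399.9 CPM in SNLD1 libraries (log2 1.17, SE 0.18, adjusted p = 0.00182). Crem, a cAMP-responsive bZIP factor, rose evenly, from 23.2, 23.04 and 20.2 CPM in naive to 54.4, 49.8 and 58.9 CPM in SNLD1 libraries (log2 1.296, SE 0.20, adjusted p = 0.00185). The groups were well apart for each of these 4 genes.

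Of 35 bZIP factors tested, 4 rose (Atf3, Crem, Fosl2, Jun) and none fell. Jun, a subunit of AP-1, had 7.54, 3.95 and 8.36 CPM in naive and 20.7, 12.4 and 17.1 CPM in SNLD1 libraries (log2 1.305, SE 0.28, adjusted p = 0.0298). Fosl2, another AP-1 subunit, had 5.13, 4.23 and 3.95 CPM in naive and 12.3, 9.95 and 12.7 CPM in SNLD1 libraries (log2 1.39, SE 0.30, adjusted p = 0.0288). The nearest values of the 2 groups were 8.36 and 12.4 CPM for Jun and 5.13 and 9.95 CPM for Fosl2. Both calls were lost without naive library 1, 2 or 3 or SNLD1 library 1 or 3, where adjusted p reached 0.149 for Jun and 0.178 for Fosl2. None of the 17 immediate-early genes tested was called by edgeR or DESeq2, and 4 had an unadjusted p under 0.05, all higher. As written, before the low-count filter, that list shares Fos, Fosb, Junb and Maff with the bZIP list. Fos, the other classical AP-1 subunit, had a log2 difference of 1.11 (SE 0.33, adjusted p = 0.172), Egr1 0.93 (0.297) and Ier3 0.85 (0.214). Of 21 Sox and Kruppel-like factors, Sox11 and Klf6 rose and none fell, with a list median of −0.08.

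**Figure D2:**
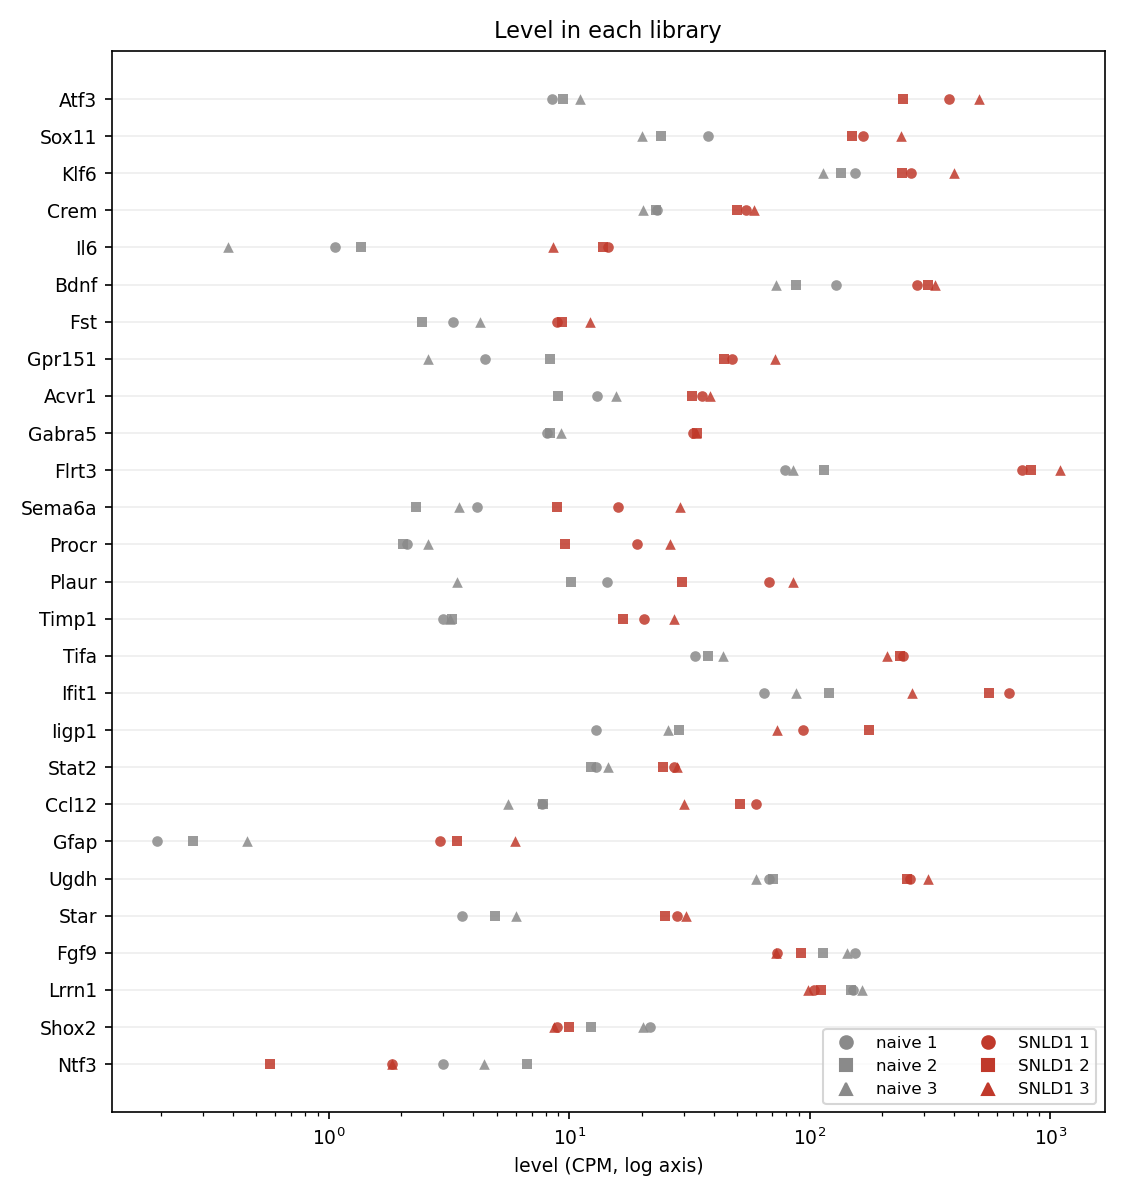
Level of 27 genes in each of the 6 libraries, on a log axis in CPM; grey symbols are naive and red symbols SNLD1 libraries, and circle, square and triangle are libraries 1, 2 and 3. In each row the red and grey symbols do not overlap; red lies to the right in the first 23 rows and to the left for Fgf9, Lrrn1, Shox2 and Ntf3.

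Among secreted ligands, 3 of 40 neurotrophic and gp130-family genes rose and 2 fell. Il6, a cytokine that signals through gp130, was low in naive ganglia, at 1.06, 1.36 and 0.38 CPM in naive and 14.6, 13.8 and 8.54 CPM in SNLD1 libraries (log2 3.79, SE 0.42, adjusted p = 3.63e-05). Bdnf, a neurotrophin that binds TrkB, went from 129, 87.4 and 72.2 CPM in naive to 280.2, 309 and 333 CPM in SNLD1 libraries (log2 1.68, SE 0.20, adjusted p = 7.32e-05), and the lowest lesioned library was more than 2 times the highest naive one. Csf1, the growth factor of macrophages and microglia, had 3.68, 1.77 and 4.26 CPM in naive and 11.2, 6.29 and 15.4 CPM in SNLD1 libraries (log2 1.71, SE 0.35, adjusted p = 0.0173). The Csf1 call was lost without naive library 1 or 2 or SNLD1 library 1 or 3, with adjusted p up to 0.166. Fst, the secreted activin antagonist follistatin, rose evenly from 3.29, 2.45 and 4.26 CPM in naive to 8.89, 9.38 and 12.2 CPM in SNLD1 libraries (log2 1.58, SE 0.25, adjusted p = 0.00236).

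Of 26 neuropeptide genes, Adcyap1 alone passed. Adcyap1, which encodes PACAP, had 31.9, 36.95 and 27.1 CPM in naive and 63.2, 56.5 and 88.5 CPM in SNLD1 libraries (log2 1.12, SE 0.21, adjusted p = 0.0104), and its call was lost without naive library 1 or 3 or SNLD1 library 3 (adjusted p up to 0.103). Vgf (1.83, adjusted p = 0.106), Gal, which encodes galanin (0.82, 0.299) and Nts, which encodes neurotensin (0.76, 0.309) had log2 differences above 0 that did not pass. The orphan receptor gene Gpr151 was the 1 receptor to pass among 42 peptide and hormone receptors, at 4.45, 8.32 and 2.58 CPM in naive and 47.4, 44.1 and 71.6 CPM in SNLD1 libraries (log2 3.47, SE 0.31, adjusted p = 2.61e-06). That receptor list otherwise leaned down, with 16 of 42 above 0 and a median of −0.11, against 6265 of 13291 and −0.01 for all genes.

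Receptors for growth factors and cytokines gave 4 rises and no fall among 65 genes. Tnfrsf12a, the receptor for TWEAK, had 6.09, 4.23 and 5.55 CPM in naive and 24.1, 12.7 and 27.3 CPM in SNLD1 libraries (log2 1.996, SE 0.30, adjusted p = 0.00135). Acvr1, a type I receptor for BMPs and activins, had 13.1, 8.9996 and 15.7 CPM in naive and 35.7, 32.4 and 38.7 CPM in SNLD1 libraries (log2 1.48, SE 0.21, adjusted p = 0.000587). Neither overlapped, and both calls held without each library in turn. Gfra1, the GDNF co-receptor, reached 61.1, 63.5 and 67.8 CPM in naive and 110.1, 117 and 149 CPM in SNLD1 libraries (log2 0.97, SE 0.18, adjusted p = 0.00937). Il13ra1, a shared chain for IL-13, had 15.3, 20.5 and 15.1 CPM in naive and 31.7, 36.5 and 24.2 CPM in SNLD1 libraries (log2 0.87, SE 0.19, adjusted p = 0.0314). Gfra1 lost its call without naive library 1 or SNLD1 library 3 (adjusted p up to 0.0929) and Il13ra1 without naive library 1 or 3 or SNLD1 library 1 or 2 (up to 0.178).

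A list of 27 BMP and TGF-beta pathway genes gave 2 rises (Fst, Smad1) and 1 fall (Smad9). Acvr1 is in the receptor list and is not counted among them. The receptor-regulated Smads moved apart: Smad1 had 14.9, 13.8 and 17.9 CPM in naive and 25.9, 27.1 and 36.5 CPM in SNLD1 libraries (log2 0.94, SE 0.19, adjusted p = 0.0147), while Smad9, which transduces the same BMP signals, had 10.3, 7.64 and 11.8 CPM in naive and 4.91, 5.26 and 4.76 CPM in SNLD1 libraries (log2 −0.998, SE 0.23, adjusted p = 0.0476). The groups did not overlap for either. Smad1 lost its call without naive library 1 or 2 or SNLD1 library 3 (adjusted p up to 0.152) and Smad9 without naive library 1 or 3 or SNLD1 library 1, 2 or 3 (up to 0.256). The receptor Bmpr1b was at −0.91 on the log2 scale and did not pass (adjusted p = 0.174).

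Signal relay inside the cell was represented by few members per pathway. Socs3, the feedback inhibitor of gp130 signalling, had 1.16, 0.409 and 0.912 CPM in naive and 6.898, 3.32 and 3.54 CPM in SNLD1 libraries (log2 2.38, SE 0.44, adjusted p = 0.00944), losing its call without naive library 3 or SNLD1 library 1 (adjusted p up to 0.0625). It and Stat2 were the 2 of 25 JAK-STAT genes that rose, and Cish, another SOCS-family gene, had a log2 difference of 1.48 with adjusted p = 0.0566. Tifa, an adaptor of the NF-kB pathway, rose in every library by a similar amount, from 33.4, 37.8 and 43.6 CPM in naive to 245, 238 and 210.4 CPM in SNLD1 libraries (log2 2.59, SE 0.17, adjusted p = 4.85e-08). Gadd45a, a DNA damage and stress gene, had 7.16, 4.23 and 8.44 CPM in naive and 65.3, 37.3 and 73.9 CPM in SNLD1 libraries (log2 3.12, SE 0.31, adjusted p = 9.71e-06). Pmaip1, the BH3-only gene also called Noxa, had 6.38, 4.77 and 6.16 CPM in naive and 22.8, 21.5 and 36.6 CPM in SNLD1 libraries (log2 2.21, SE 0.29, adjusted p = 0.000277). These were the only 2 of 31 p53 target genes to rise, the list's median was −0.03, and Casp6, an effector caspase, had 14.1, 18.3 and 14.6 CPM in naive and 24.7, 32.4 and 40.8 CPM in SNLD1 libraries (log2 1.07, SE 0.19, adjusted p = 0.00764), a call lost without naive library 1 or 3 or SNLD1 library 3 (adjusted p up to 0.0789).

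Itpr1, Rcan1 and Pkib rose and are in no list. Itpr1, the IP3 receptor that releases calcium from the endoplasmic reticulum, had 12.8, 9.82 and 14.6 CPM in naive and 50.3, 61.6 and 76.9 CPM in SNLD1 libraries (log2 2.33, SE 0.23, adjusted p = 9.27e-06). Rcan1, an inhibitor of calcineurin, had 23.3, 11.999 and 23.1 CPM in naive and 64.2, 37.7 and 69.7 CPM in SNLD1 libraries (log2 1.54, SE 0.25, adjusted p = 0.00268). Pkib, an inhibitor of protein kinase A, had 70.3, 75.8 and 77.9 CPM in naive and 217, 165 and 209 CPM in SNLD1 libraries (log2 1.399, SE 0.15, adjusted p = 2.81e-05). All 3 calls held without each library in turn.

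Among adhesion genes, Flrt3 made the largest rise in CPM of the 126. Flrt3, a leucine-rich repeat membrane protein that binds Unc5 and latrophilin receptors, went from 78.6, 114 and 85.5 CPM in naive to 760.2, 830.1 and 1095 CPM in SNLD1 libraries (log2 3.27, SE 0.19, adjusted p = 1.06e-08). Sema6a, a transmembrane semaphorin, had 4.16, 2.32 and 3.497 CPM in naive and 15.9, 8.92 and 28.8 CPM in SNLD1 libraries (log2 2.401, SE 0.38, adjusted p = 0.00187), with SNLD1 library 3 more than 3 times SNLD1 library 2. Of 45 axon growth genes 5 rose, and 36 lay above 0 with a median of 0.13. Besides Flrt3 and Sema6a they were the tubulin Tubb6 (1.23, adjusted p = 0.00522), the laminin-binding integrin Itga7 (1.26, 0.036) and the microtubule-destabilising stathmin Stmn4 (1.62, 0.0453). Tubb6 lost its call without naive library 1 (adjusted p = 0.0662), and Itga7 and Stmn4 lost theirs without naive library 1, 2 or 3 or SNLD1 library 1 or 3 (up to 0.235 and 0.408). Gap43, a growth-cone protein was at 0.23 and did not pass (adjusted p = 0.861), and Cd44, a hyaluronan receptor, was at 0.65 with adjusted p = 0.0505.

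Guidance and leucine-rich repeat families leaned below 0. Of 47 semaphorins, plexins, ephrins, netrins and slits (with Flrt and Unc5 genes), 16 were above 0 and the median was −0.12, although Flrt3 and Sema6a are members. Of 74 leucine-rich repeat membrane protein genes, a list that leaves out Flrt3, 24 were above 0 (median −0.13) and Lrrn1 fell. Of 52 cadherins and protocadherins 22 were above 0 and Pcdh18 fell, and of 64 integrins, collagens and laminins 29 were above 0 and Itga7 rose. These last shares are near that of all genes (6265 of 13291), and the medians ran from −0.12 to 0.01 and from −0.22 to 0.12 without 1 library.

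Of 49 proteases, protease inhibitors and coagulation receptors, 7 rose and none fell. Plaur, the urokinase receptor, had 14.4, 10.2 and 3.42 CPM in naive and 67.9, 29.5 and 85.4 CPM in SNLD1 libraries (log2 2.72, SE 0.40, adjusted p = 0.00097). Plat, tissue plasminogen activator, had 24.1, 39.4 and 33.3 CPM in naive and 65.6, 58.1 and 66.6 CPM in SNLD1 libraries (log2 0.98, SE 0.21, adjusted p = 0.0287). Procr, the endothelial protein C receptor, had 2.13, 2.05 and 2.58 CPM in naive and 19.2, 9.61 and 26.4 CPM in SNLD1 libraries (log2 3.003, SE 0.34, adjusted p = 3.83e-05). Timp1, an inhibitor of matrix metalloproteases, had 2.998, 3.27 and 3.19 CPM in naive and 20.5, 16.7 and 27.2 CPM in SNLD1 libraries (log2 2.76, SE 0.28, adjusted p = 1.11e-05). For Plaur, Procr and Timp1 SNLD1 library 2 was the lowest of its group. Mmp16, a membrane metalloprotease, was at 1.21 (0.0267) and Adamts1, a secreted one, at 0.91 (0.0422) on the log2 scale (adjusted p in parentheses). Serpinb1a, an intracellular inhibitor of neutrophil proteases, was abundant, at 421, 559 and 579 CPM in naive and 1254, 1099.7 and 1211 CPM in SNLD1 libraries (log2 1.19, SE 0.21, adjusted p = 0.00624). Serpinb1a lost its call without naive library 1 (adjusted p = 0.0732), Plat without naive library 1 or 3 or SNLD1 library 1 or 3 (up to 0.207), Mmp16 without the same libraries (up to 0.178), and Adamts1 without any 1 of the 6 (up to 0.235).

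Several called genes encode enzymes of sugar or lipid metabolism. They were picked from the calls, so no count over such enzymes is given, except for cholesterol and fatty acid synthesis. Ugdh, which makes UDP-glucuronate for glycosaminoglycans, had 67.5, 70.1 and 60.1 CPM in naive and 261, 255 and 309.6 CPM in SNLD1 libraries (log2 2.06, SE 0.17, adjusted p = 1.38e-06). Uap1, which makes UDP-N-acetylglucosamine, had 69.3, 63.5 and 67.6 CPM in naive and 157, 167 and 169.98 CPM in SNLD1 libraries (log2 1.299, SE 0.14, adjusted p = 2.41e-05). Both varied little within groups. Hs2st1, which sulfates heparan, was at 0.71 (adjusted p = 0.0491) and Sdc1, a heparan sulfate proteoglycan, at 1.02 (0.0442). Star, which carries cholesterol into mitochondria for steroid synthesis, had 3.58, 4.91 and 6.01 CPM in naive and 28.2, 25.05 and 30.6 CPM in SNLD1 libraries (log2 2.52, SE 0.28, adjusted p = 3.9e-05). Hsd17b7, an enzyme of late cholesterol synthesis, had 112, 115 and 99.9 CPM in naive and 198, 190.2 and 258 CPM in SNLD1 libraries (log2 0.98, SE 0.18, adjusted p = 0.0083) and was the 1 of 40 cholesterol and fatty acid synthesis genes to pass. In that list 30 of 40 were above 0 with a median of 0.20, among them Idi1 (0.59, adjusted p = 0.0856), Stard4 (0.56, 0.173), Sc5d (0.48, 0.228) and Cyp51 (0.402, 0.403). Abca1, the cholesterol exporter, was at 0.904 (0.0218), Plin2, a lipid droplet coat protein, at 0.78 (0.0151) and Acsl4, an acyl-CoA synthetase, at 0.78 (0.0147). Hsd17b7, Abca1, Plin2 and Acsl4 lost their calls without naive library 1 or 3 or SNLD1 library 3 (adjusted p up to 0.0795, 0.159, 0.115 and 0.118), and Hs2st1 and Sdc1 without most libraries (up to 0.279 and 0.26).

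Metal-handling and acute-phase genes gave 5 rises among 40, with 35 above 0 and a median of 0.27. Steap1, of a family of metalloreductases, had 10.2, 7.36 and 5.17 CPM in naive and 57.9, 60.7 and 54.4 CPM in SNLD1 libraries (log2 2.94, SE 0.25, adjusted p = 1.91e-06). The serum amyloid gene Saa1 was near 0 in naive ganglia and had 0.193, 0.682 and 0.684 CPM in naive and 10.7, 8.81 and 5.61 CPM in SNLD1 libraries (log2 3.97, SE 0.51, adjusted p = 0.000207), and its neighbour Saa2 had 0.387, 0 and 0.304 CPM in naive and 3.07, 2.06 and 1.34 CPM in SNLD1 libraries (log2 2.98, SE 0.60, adjusted p = 0.0163). Steap4 (0.697, adjusted p = 0.0464) and Serpina3i (1.196, 0.0494) were close to the threshold. Saa2 lost its call without naive library 1 or 3 or SNLD1 library 1 (adjusted p up to 0.0923) and Steap4 and Serpina3i without 5 libraries each (up to 0.251 and 0.327). Reads of Saa1 and Saa2, Serpinb1a and Serpinb1c, or Serpina3i and its paralogs may be shared between near-identical copies, and how the authors' counting split them is not given in the sources used here.

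Rises that held up well also came from genes better known from other tissues or from dividing cells. Zfp729b, a KRAB zinc finger gene, had 20.02, 25.4 and 16.4 CPM in naive and 140.1, 181 and 171 CPM in SNLD1 libraries (log2 3.002, SE 0.21, adjusted p = 8.78e-08), and with Zfp772 (1.701) and Zfp655 (0.68) it was 1 of 3 that rose among 124 genes named Zfp600 to Zfp999, of which 60 were above 0. Msh6, a DNA mismatch repair gene, had 15.96, 13.2 and 12.5 CPM in naive and 81.1, 79.6 and 108 CPM in SNLD1 libraries (log2 2.69, SE 0.19, adjusted p = 8.78e-08). Kif22, a mitotic kinesin, had 7.25, 10.1 and 8.06 CPM in naive and 31.6, 32.5 and 37.5 CPM in SNLD1 libraries (log2 2.01, SE 0.21, adjusted p = 1.33e-05), the 1 of 47 kinesins and dyneins to pass, while none of 46 cell cycle genes was called by edgeR (3 with an unadjusted p under 0.05, and Prc1 called by DESeq2). Cnst, consortin, which binds connexins on their way to the membrane, had 314, 340.2 and 358 CPM in naive and 564, 781 and 744 CPM in SNLD1 libraries (log2 1.05, SE 0.15, adjusted p = 0.000704). Zfp729b, Zfp772, Msh6, Kif22 and Cnst kept their calls without each library in turn, and Zfp655 lost its call without 5 of the 6 (adjusted p up to 0.232).

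Of 33 target genes of YAP and SRF, 3 rose: Ankrd1, a muscle ankyrin repeat protein, had 0.29, 0.136 and 0.152 CPM in naive and 2.15, 2.63 and 2.44 CPM in SNLD1 libraries (log2 3.53, SE 0.60, adjusted p = 0.00388), the tropomyosin Tpm4 was at 0.71 (adjusted p = 0.0288) and the ectonucleotidase Nt5e at 0.88 (0.0422). The list's median was 0.04 and 19 of 33 were above 0, so the rises were in single members. Tmem173, the DNA-sensing adaptor STING, had 14.5, 14.2 and 7.297 CPM in naive and 40.8, 59.8 and 47.3 CPM in SNLD1 libraries (log2 2.05, SE 0.25, adjusted p = 8.12e-05) and kept its call without each library in turn. Dclk3, a doublecortin-like kinase, had 18.7, 21.95 and 26.1 CPM in naive and 68.7, 78.9 and 80.05 CPM in SNLD1 libraries (log2 1.77, SE 0.19, adjusted p = 2.36e-05). Rhoq, a small GTPase, had 53.6, 40.2 and 38.4 CPM in naive and 87.5, 88.5 and 126 CPM in SNLD1 libraries (log2 1.19, SE 0.18, adjusted p = 0.00119). Other called genes, picked from the calls and not from a list, were the ubiquitin-related genes Trim15 (4.596, adjusted p = 0.00115), Ube2q2 (0.82, 0.00312), Rnf122 (1.97, 0.0128), Fbxo30 (0.899, 0.0197) and Otud4 (0.67, 0.0453), and the RNA-related genes Coil (1.48, 0.0233), Clp1 (0.83, 0.0385), Caprin2 (0.93, 0.0184) and Zc3hav1 (1.17, 0.0476). Trim15, Ube2q2, Dclk3 and Rhoq kept their calls without each library in turn. The others lost theirs, Ankrd1 only without naive library 3 (adjusted p = 0.0517) and Rnf122, Fbxo30, Otud4, Coil, Clp1, Caprin2, Zc3hav1, Tpm4 and Nt5e without 3 or more libraries each (up to 0.124, 0.152, 0.212, 0.16, 0.233, 0.135, 0.233, 0.193 and 0.254).

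Of the 126 genes that rose, 61 were in at least 1 of the 70 lists and 65 in none. Smim3, a small integral membrane protein, was one of the latter, at 24.6, 31.1 and 25.4 CPM in naive and 113, 97.4 and 127 CPM in SNLD1 libraries (log2 2.06, SE 0.17, adjusted p = 1.38e-06). The noncoding RNA gene Kank4os, at 2.01 (adjusted p = 0.0096), is antisense to Kank4, and since the strand setting of the counting is not given in the sources used here, its reads and those of Kank4 cannot be told apart. Its call was lost without naive library 1 or SNLD1 library 3 (up to 0.0738). Sprr1a, a cornified-envelope protein known from regenerating neurons, did not pass the low-count filter and was at 0.0967, 0.136 and 0.456 CPM in naive and 1.69, 0.801 and 3.17 CPM in SNLD1 libraries, with no overlap.

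The channel and transmitter receptor lists held 1 call, although Itpr1 (above) and Mcoln2, a mucolipin channel (2.68, adjusted p = 0.0189, up to 0.142 without 1 library), were called and are in none of them. Gabra5, a GABA-A receptor subunit, was that gene, 1 of 48 receptor subunits for glutamate, GABA, glycine, acetylcholine and serotonin, at 8.12, 8.32 and 9.27 CPM in naive and 32.8, 33.97 and 33.8 CPM in SNLD1 libraries (log2 1.96, SE 0.18, adjusted p = 2.61e-06). It was among the most even of the rises, all 3 lesioned libraries lying between 32.8 and 33.97 CPM. No gene passed among 57 potassium channel genes, 28 sodium, calcium and HCN channel genes, 40 TRP, Piezo, purinergic and acid-sensing genes or 42 genes of synaptic release. Unadjusted p was under 0.05 for 5, 3, 7 and 1 of them, and DESeq2 called only Syt4. The potassium channel list leaned down, with 17 of 57 above 0 and a median of −0.12, Kcna2, a channel of myelinated axons, at −0.47 (adjusted p = 0.264) and Kcnk18, which encodes TRESK, at −2.203 (0.0665). Syt4, a synaptotagmin, was at 0.67 (0.056) and Trpv2 at 0.66 (0.191).

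Interferon-stimulated genes had the highest median of all lists with 20 or more genes tested. Of 57 tested, 53 were above 0, and the median was 0.65 against −0.01 for all genes. Unadjusted p was under 0.05 for 28 in the higher and 1 in the lower direction, and 6 were called, with none called lower. The lowest member was at −4.27 on the log2 scale, the lowest value of all genes tested, and did not pass. Ifit1, which binds foreign RNA, had 64.8, 120.1 and 87.7 CPM in naive and 671, 556 and 265 CPM in SNLD1 libraries (log2 2.45, SE 0.32, adjusted p = 0.000224). Iigp1, an immunity-related GTPase, had 12.96, 28.5 and 25.8 CPM in naive and 94.1, 176 and 73.2 CPM in SNLD1 libraries (log2 2.36, SE 0.39, adjusted p = 0.00312). Igtp, of the same family, had 58.997, 76.9 and 63.02 CPM in naive and 125, 155 and 102 CPM in SNLD1 libraries (log2 0.94, SE 0.18, adjusted p = 0.0104). Stat2, the transcription factor of type I interferon signalling, had 12.96, 12.3 and 14.4 CPM in naive and 27.3, 24.6 and 28.2 CPM in SNLD1 libraries (log2 1.01, SE 0.16, adjusted p = 0.00256). Mx2 was at 1.53 (adjusted p = 0.0338) and Gbp2 at 1.04 (0.0425). Ifit1, Iigp1 and Stat2 kept their calls without each library in turn, Igtp lost its call without naive library 1 or 3 (up to 0.0892), and Mx2 and Gbp2 lost theirs without naive library 1 or 3 or SNLD1 library 2 among others (up to 0.224 and 0.261). Within the lesioned group SNLD1 library 3 was the lowest for 45 of the 57 genes and SNLD1 library 2 the highest for 35, whereas over the 126 genes that rose SNLD1 library 3 was most often the highest. By library, the list's median deviation from the naive mean on the log2(CPM + 0.5) scale was 0.73, 0.85 and 0.21 in SNLD1 and −0.23, 0.27 and −0.03 in naive libraries 1, 2 and 3, so naive library 2 stood above SNLD1 library 3. The median over refits without 1 library ran from 0.45 to 0.78.

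Promoters of Ifit1, Stat2 and Igtp are shown as 3 of the called interferon-stimulated genes that held the letters of an interferon response element (Gbp2 also held them), and those of Atf3 and Il6 because these were the transcription factor and the ligand of largest change. Sequences are 250 bases before to 50 after a gene's start, from RefSeq on build GRCm38.p6, 5′ to 3′ on the gene's strand, and capitals mark matches to GAAANNGAA (an interferon-stimulated response element core, ISRE) in the first 3, to TGATGNAA (an ATF4-type element) in Atf3 and to TGANTCA (AP-1) in Il6, each searched on both strands.
Ifit1, chr19:34640639-34640938, plus strand: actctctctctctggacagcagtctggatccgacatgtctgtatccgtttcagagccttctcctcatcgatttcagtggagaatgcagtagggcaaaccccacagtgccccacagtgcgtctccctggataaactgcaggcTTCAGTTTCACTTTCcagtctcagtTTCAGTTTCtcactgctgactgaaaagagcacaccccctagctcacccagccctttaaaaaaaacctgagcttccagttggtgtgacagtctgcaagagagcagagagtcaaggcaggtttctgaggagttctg
Stat2, chr10:128270248-128270547, plus strand: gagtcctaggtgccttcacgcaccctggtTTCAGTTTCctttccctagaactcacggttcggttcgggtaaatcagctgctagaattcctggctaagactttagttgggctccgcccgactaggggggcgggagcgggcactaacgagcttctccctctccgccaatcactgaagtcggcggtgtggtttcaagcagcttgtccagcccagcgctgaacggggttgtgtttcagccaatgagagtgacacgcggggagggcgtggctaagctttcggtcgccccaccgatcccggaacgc
Igtp, chr11:58199306-58199605, plus strand: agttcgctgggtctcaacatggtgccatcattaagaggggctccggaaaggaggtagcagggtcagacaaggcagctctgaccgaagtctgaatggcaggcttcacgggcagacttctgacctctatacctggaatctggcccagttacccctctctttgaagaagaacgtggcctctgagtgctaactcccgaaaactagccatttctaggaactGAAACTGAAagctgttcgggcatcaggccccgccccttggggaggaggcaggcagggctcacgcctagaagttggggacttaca
Atf3, chr1:191183284-191183583, minus strand: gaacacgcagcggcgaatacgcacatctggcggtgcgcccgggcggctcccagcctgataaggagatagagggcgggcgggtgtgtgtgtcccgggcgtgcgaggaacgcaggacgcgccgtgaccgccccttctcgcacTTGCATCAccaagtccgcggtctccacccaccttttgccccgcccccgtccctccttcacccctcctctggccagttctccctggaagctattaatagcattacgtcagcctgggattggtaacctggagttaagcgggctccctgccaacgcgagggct
Il6, chr5:30012864-30013163, plus strand: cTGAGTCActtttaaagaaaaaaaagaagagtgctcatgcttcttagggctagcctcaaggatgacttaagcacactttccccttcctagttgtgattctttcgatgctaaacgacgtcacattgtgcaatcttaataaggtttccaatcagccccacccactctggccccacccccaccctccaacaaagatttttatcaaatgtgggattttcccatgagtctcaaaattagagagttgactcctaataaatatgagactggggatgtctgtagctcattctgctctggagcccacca
Ifit1 held 3 matches to the ISRE letters, of which 2 overlap, and Stat2 and Igtp 1 each, while the Atf3 and Il6 matches are single.

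Of the interferon-stimulated genes with a promoter in the RefSeq table, 26 of 41 held the ISRE letters in at least 1 promoter (63.4%), against 8.72% of 10559 genes tested in the RNA-seq comparison. Among the 96 genes that rose and had a promoter there, 11 held them (11.5%). The AP-1 letters were in 10 of the 96 (10.4%, against 6.45% of genes tested), Il6, Plaur, Procr, Bdnf and Gbp2 among them, and letters of a STAT site, TTCNNNGAA, in 16 (16.7% against 8.33%), Socs3, Gfap and Igtp among them. The TEAD letters GGAATG were at 14.6% against 14.7%, and the ATF4-type element was in 3 of the 96 (3.12% against 2.87%). Of the ATF4 target list, 12 of 35 held that element (34.3%). These are matches of letters in a window, and a gene with several promoters in the table, such as Bdnf with 7, counts when any of them matches.

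Chemokines rose beside the interferon list. The monocyte attractants Ccl2, Ccl7 and Ccl12, whose genes lie near each other on chromosome 11, were all called. Ccl12 had 7.74, 7.77 and 5.55 CPM in naive and 60.1, 51.1 and 30.02 CPM in SNLD1 libraries (log2 2.75, SE 0.29, adjusted p = 1.94e-05). Ccl7 had 7.25, 10.4 and 8.44 CPM in naive and 33.9, 36.8 and 25.3 CPM in SNLD1 libraries (log2 1.89, SE 0.33, adjusted p = 0.00565), and Ccl2 38.4, 21.7 and 18.2 CPM in naive and 55.3, 85.3 and 49.2 CPM in SNLD1 libraries (log2 1.28, SE 0.29, adjusted p = 0.0431). All 3 had their lowest lesioned value in SNLD1 library 3. They belong to a list of 23 chemokine and receptor genes tested, of which 18 were above 0 and none was called lower (median 0.45, from 0.23 to 0.91 without 1 library). Ccl2 lost its call without naive library 2 or 3 or SNLD1 library 1, 2 or 3 (adjusted p up to 0.267) and Ccl7 without naive library 1 (0.0671).

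Immune cell markers were read beside these genes. Of 27 macrophage markers none passed and 19 were above 0. Their summed level was 302 to 550 CPM in naive and 377 to 634 CPM in lesioned libraries, and library 2 was the highest of both groups, as it was for interferon-stimulated genes. None of the 28 markers listed was at 0 in all 6 libraries. None was called by DESeq2 either, and 3 had an unadjusted p under 0.05, Fcgr1 (log2 1.11, adjusted p = 0.277), Cd14 (0.89, 0.317) and Mrc1 (0.62, 0.654). There were 4 called genes outside the list that are known from myeloid cells: the Fc receptor Fcgr2b had 5.32, 5.73 and 8.36 CPM in naive and 16.2, 21.05 and 13.1 CPM in SNLD1 libraries (log2 1.36, SE 0.27, adjusted p = 0.0147), Ms4a6d 3.29, 5.18 and 7.22 CPM in naive and 18.2, 16.01 and 12.9 CPM in SNLD1 libraries (log2 1.57, SE 0.32, adjusted p = 0.0206). Cd207, langerin, had 0.58, 0.273 and 0.456 CPM in naive and 3.53, 2.06 and 5.25 CPM in SNLD1 libraries (log2 2.96, SE 0.58, adjusted p = 0.0147), with Ifi204 at 1.61 (0.00704). The T-cell kinase Txk rose, at 1.26, 1.09 and 0.836 CPM in naive and 3.07, 4.58 and 4.64 CPM in SNLD1 libraries (log2 1.95, SE 0.42, adjusted p = 0.0288), while summed lymphocyte markers were 118 to 149 CPM in naive and 108 to 132 CPM in lesioned libraries. Tph1, which makes serotonin in mast cells and pineal cells, rose from 2.805, 1.36 and 0.836 CPM in naive to 7.82, 9.84 and 8.91 CPM in SNLD1 libraries (log2 2.41, SE 0.43, adjusted p = 0.00629), and is itself in the mast cell list, whose sum was 80.9 to 125 and 102 to 121 CPM with Mcpt2 at 0. Fcgr2b lost its call without naive library 1 or 2 or SNLD1 library 2, Ms4a6d without naive library 1 or 2 or SNLD1 library 1, Cd207 without naive library 1, 2 or 3 or SNLD1 library 3, Txk without naive library 1, 2 or 3 or SNLD1 library 2 or 3 and Tph1 without naive library 3 (adjusted p up to 0.118, 0.156, 0.129, 0.182 and 0.0625). The part of these cells in the chemokine and interferon values was not tested.

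Among glial genes, only reactive markers were called. Gfap, the intermediate filament of reactive satellite glia and astrocytes, rose from 0.193, 0.273 and 0.456 CPM in naive to 2.91, 3.43 and 5.98 CPM in SNLD1 libraries (log2 3.62, SE 0.57, adjusted p = 0.00185). The summed level of 15 reactive glia markers was 691 to 760 CPM in naive and 1070 to 1264 CPM in lesioned libraries, with no overlap, but Bdnf, which sensory neurons also express, is in that list. Its mean went from 96.2 to 308 CPM, that of Cd44 from 186 to 292 CPM and that of Serpina3n from 218 to 308 CPM. Olig1 was at 0 in all 6 libraries. Satellite glia markers (16, none called, 3 above 0, median −0.09) summed to 4193 to 5256 and 3712 to 5265 CPM. Myelinating Schwann cell markers (22, none called, 5 above 0) had a median of −0.20, which became 0.02 without SNLD1 library 1, their sums running from 3622 to 4919 CPM in naive and from 3123 to 5495 CPM in lesioned libraries. No satellite glia, myelinating Schwann, endothelial, mural or fibroblast marker was called by edgeR or DESeq2, with 0, 1, 2, 0 and 3 members at an unadjusted p under 0.05. The summed endothelial, mural and fibroblast levels overlapped between groups.

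**Figure D3:**
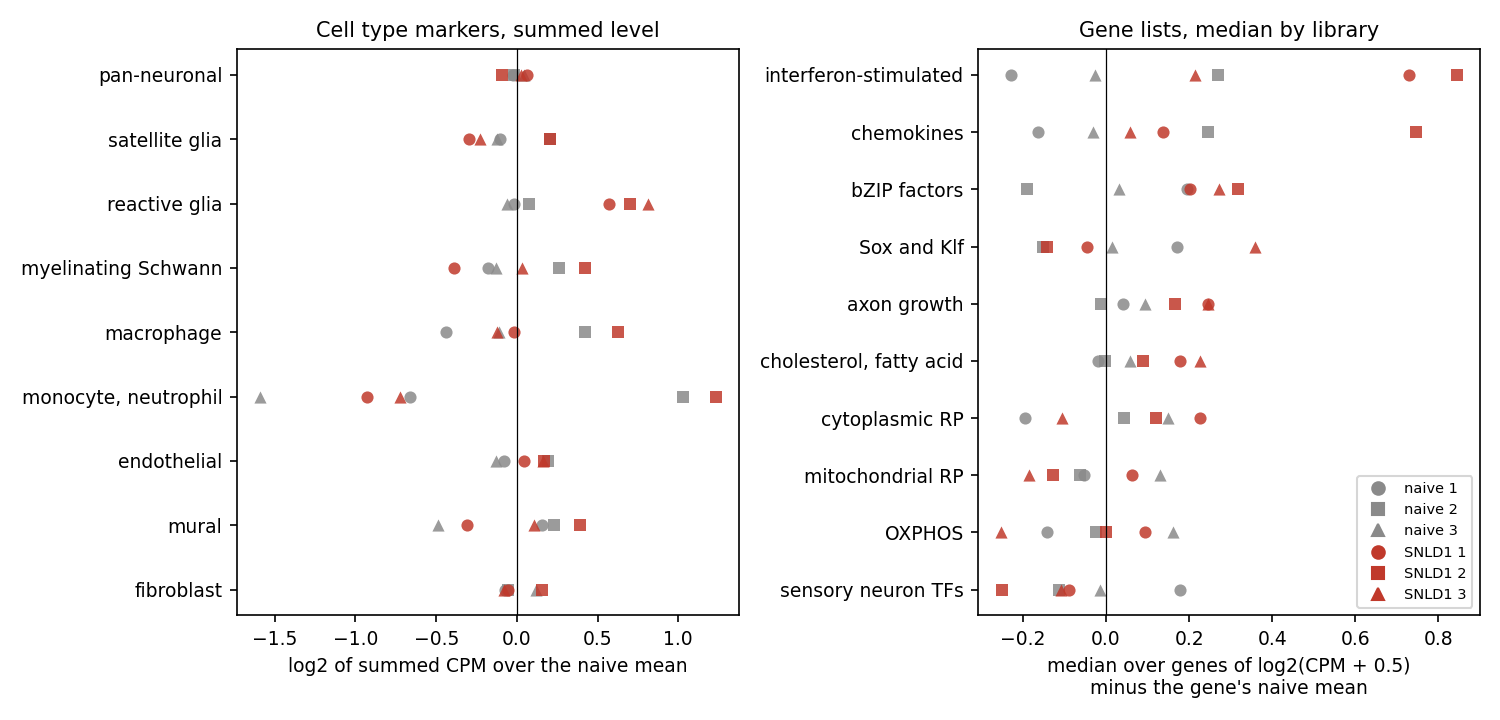
Left: summed level of each marker list in each library, as log2 of the sum in CPM over the mean of the naive libraries; right: for each gene list, the median over genes of log2(CPM + 0.5) minus the gene's naive mean. Grey symbols are naive and red symbols SNLD1 libraries (circle, square and triangle for libraries 1, 2 and 3; RP, ribosomal proteins; OXPHOS, oxidative phosphorylation; TFs, transcription factors). Reactive glia markers separate the groups, library 2 of both groups is highest for monocyte and neutrophil markers, and the interferon list overlaps because naive library 2 (0.27) lies above SNLD1 library 3 (0.21).

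Genes of protein synthesis and turnover leaned above 0, with 1 call. Cytoplasmic ribosomal protein genes were above 0 for 65 of 83 (median 0.08, none called), but the median fell to 0.00 without naive library 1 or SNLD1 library 1, and SNLD1 library 3 was the lowest lesioned library for 66 of the 83. Proteasome subunits were above 0 for 33 of 42 (median 0.07, none called). Translation initiation and elongation factors were above 0 for 40 of 61, and Eif3b, a subunit of the initiation factor eIF3, rose from 37.4, 34.2 and 41.5 CPM in naive to 67.6, 64.9 and 69.7 CPM in SNLD1 libraries (log2 0.83, SE 0.16, adjusted p = 0.0104), a call lost without naive library 1 or SNLD1 library 3 (up to 0.0753). ATF4 targets and tRNA synthetases were above 0 for 33 of 45 (median 0.15), with no edgeR call, 8 at an unadjusted p under 0.05 and DESeq2 calls of Atf4 and Ppp1r15a. Atf4 itself was at 0.64 (adjusted p = 0.101), the phosphatase subunit Ppp1r15a at 1.01 (0.073) and the isoleucyl-tRNA synthetase Iars at 0.62 (0.173). Chaperones of the endoplasmic reticulum and the unfolded protein response had a median of 0.05 (27 of 41 above 0, none called). Hspa5, or BiP, was at 0.46 (0.264). For ribosomal protein, proteasome and chaperone genes DESeq2 made no call either, and 0, 1 and 2 members had an unadjusted p under 0.05.

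Mitochondrial genes leaned the opposite way. Mitochondrial ribosomal protein genes were above 0 for 15 of 77 (median −0.10) and oxidative phosphorylation subunits for 14 of 80 (median −0.05), with no call by edgeR or DESeq2 and no unadjusted p under 0.05 in either list. Mrpl45, of the large mitochondrial subunit, was at −0.28 (adjusted p = 0.748) and Uqcrc1, of complex III, at −0.49 (0.875). The oxidative phosphorylation median rose just above 0, to 0.01, without naive library 3 or SNLD1 library 3, and SNLD1 library 3 was the lowest lesioned library for 51 of its 80 genes and 41 of the 77. By library, the oxidative phosphorylation median on the log2(CPM + 0.5) scale was −0.14, −0.02 and 0.16 in naive and 0.09, 0.00 and −0.25 in SNLD1 libraries 1, 2 and 3, so the spread within a group exceeded the difference between groups.

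**Figure D4:**
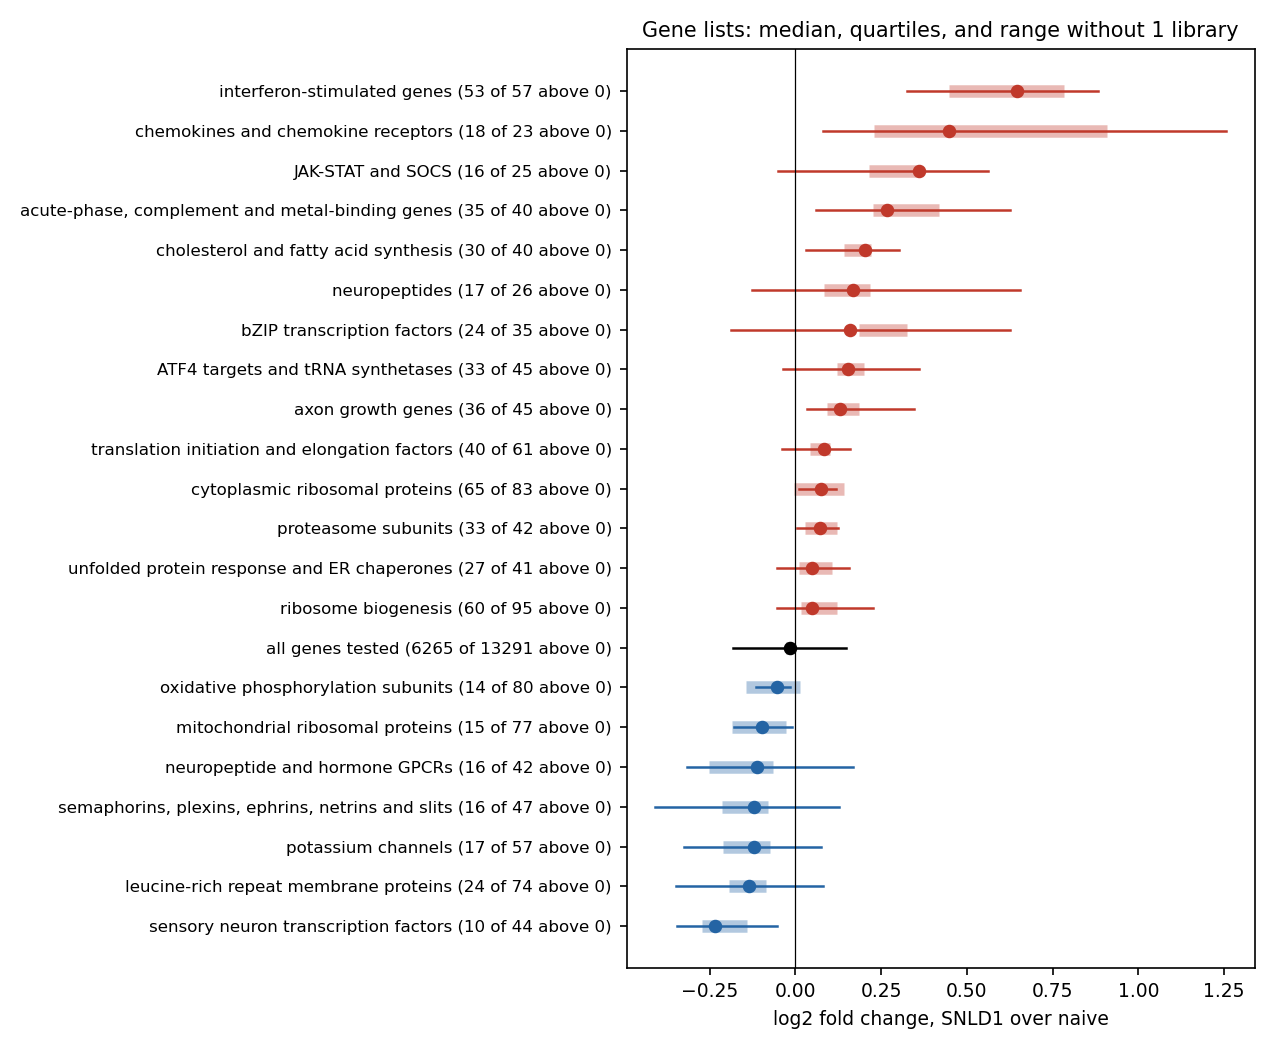
Median log2 fold change (dot), quartiles (thin line) and range of the median over the refits without 1 library (thick band, each refit with its own low-count filter) for 21 gene lists and for all 13291 genes tested, with the number of genes above 0. Red lists have a median above 0, blue ones below, black is all genes; interferon-stimulated genes are highest (0.65) and sensory neuron transcription factors lowest (−0.23) of those drawn.

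The 10 genes that fell included regulators of neuronal identity and growth. Fgf9, a fibroblast growth factor of sensory and motor neurons, had 155, 113 and 143 CPM in naive and 73.1, 91.6 and 72.4 CPM in SNLD1 libraries (log2 −0.79, SE 0.17, adjusted p = 0.0289), the lowest naive library lying above the highest lesioned one. Ntf3, which encodes neurotrophin-3, the survival factor of proprioceptors, was low throughout, at 2.998, 6.68 and 4.41 CPM in naive and 1.84, 0.572 and 1.83 CPM in SNLD1 libraries (log2 −1.73, SE 0.39, adjusted p = 0.039). Shox2, a homeobox gene of touch neurons that express TrkB, had 21.7, 12.3 and 20.4 CPM in naive and 8.89, 9.95 and 8.66 CPM in SNLD1 libraries (log2 −0.99, SE 0.23, adjusted p = 0.0431). Lrrn1, a leucine-rich repeat neuronal protein, was the most abundant of the 10 at 151, 148 and 165 CPM in naive and 104, 111 and 98.2 CPM in SNLD1 libraries (log2 −0.57, SE 0.13, adjusted p = 0.0491), and Pcdh18, a protocadherin, had 9.19, 6.41 and 10.8 CPM in naive and 3.07, 3.89 and 3.54 CPM in SNLD1 libraries (log2 −1.33, SE 0.27, adjusted p = 0.0166). Fam13a was at 21.5, 30.1 and 25.2 CPM in naive and 10.9, 13.3 and 11.3 CPM in SNLD1 libraries (log2 −1.11, SE 0.26, adjusted p = 0.0464). Nim1k, a kinase of the AMPK-related group, was at −1.06 (adjusted p = 0.0425), Smad9 at −0.998, and 1190002N15Rik and 8430408G22Rik at −0.99 (0.0128) and −1.56 (0.0287). Lesioned values lay close together, between 98.2 and 111 CPM for Lrrn1 and between 8.66 and 9.95 CPM for Shox2. Each of the 10 lost its call without at least 2 of the 6 libraries, with adjusted p up to 0.116 for 1190002N15Rik, 0.109 for Pcdh18, 0.155 for Ntf3, 0.166 for Fgf9, 0.239 for Shox2, 0.196 for Fam13a and 0.25 for Lrrn1.

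Just outside the threshold lay Fndc5, the precursor of irisin (−0.86, adjusted p = 0.0515), Slitrk3, a synaptic adhesion protein (−1.06, 0.0593), Rcsd1 (−1.103, 0.0642), Dapk2 (−0.77, 0.0649), Adgrb3, an adhesion receptor (−0.897, 0.0665) and the zinc finger homeobox gene Tshz3 (−0.72, 0.101). Isl1, the LIM homeobox factor of all sensory neurons, had 285, 229.8 and 247 CPM in naive and 186, 179 and 177 CPM in SNLD1 libraries, which do not overlap (log2 −0.49, SE 0.13, adjusted p = 0.112). Sensory neuron transcription factors as a list were above 0 for 10 of 44, with a median of −0.23 (from −0.27 to −0.14 without 1 library), Shox2 being the 1 called by edgeR, and Isl1 called besides by DESeq2. By library, the list's median deviation on the log2(CPM + 0.5) scale was 0.179, −0.114 and −0.015 in naive libraries 1, 2 and 3. In SNLD1 libraries 1, 2 and 3 it was −0.089, −0.252 and −0.109, so naive library 2 lay below SNLD1 libraries 1 and 3. Markers of myelinated low-threshold and proprioceptive neurons were above 0 for 6 of 26 (median −0.15), with Chodl at −1.01 (adjusted p = 0.467) and Etv1 at −0.34 (0.752). Markers of non-peptidergic and peptidergic nociceptors were above 0 for 12 of 20 and 12 of 18 (medians 0.13 and 0.05). The differences between these neuron classes were not tested.

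The same genes were then read in the Mettl14cKO libraries, which are not in the wild-type contrast but shared its filter and estimate of spread, and in the input libraries, which had no part in the wild-type calls. With only the 6 wild-type libraries in the fit, 96 genes were called higher and 1 lower. In Mettl14cKO ganglia the same test called 0.624% of genes higher and 0.0602% lower. There 124 of the 126 genes were above 0, against 6791 of 13291 for all genes, and 56 were called. Their median was 0.998 against 1.48 in wild type. The 126 were selected in wild type, so a smaller median in other libraries cannot be read as a weaker response. Igfbp3 (−0.15) and Abca1 (−0.01) were the 2 below 0 in Mettl14cKO. Of the 10 lower genes, 9 were below 0 there, Ntf3 (0.18) being the exception, and edgeR called none of them. In the 4 wild-type inputs, 120 of the 126 were above 0 (median 1.33, against 5936 of 13100 and −0.07 for all genes), and 9 of 10 lower genes were below 0, all but 8430408G22Rik (0.33). The inputs include a lesioned library of 927807 counts, and no gene was called in them. Of the 126 genes, 26 had an unadjusted p under 0.05 there, against 0.275% of all genes in the higher direction. Without that library 99 of the 126 were above 0, and 9 of the 10 below.

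The size of the change in single genes varied between these libraries. Il6 was at 3.79 in wild type, 5.51 in Mettl14cKO and 3.85 in the inputs, and Gfap at 3.62, 1.70 and 4.69. Speer4b, a member of a testis-expressed family of close paralogs, had 0.387, 0.818 and 0.152 CPM in naive and 4.75, 5.72 and 6.47 CPM in SNLD1 libraries in wild type, with log2 3.76, 0.64 and 1.38 in the 3 comparisons. Olfr920, an olfactory receptor gene, had 3.87, 3.82 and 3.801 CPM in naive and 13.2, 12.2 and 9.64 CPM in SNLD1 libraries, with log2 1.603, 0.36 and −0.12. Whether the injury effect differed between genotypes was not tested here.

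**Figure D5:**
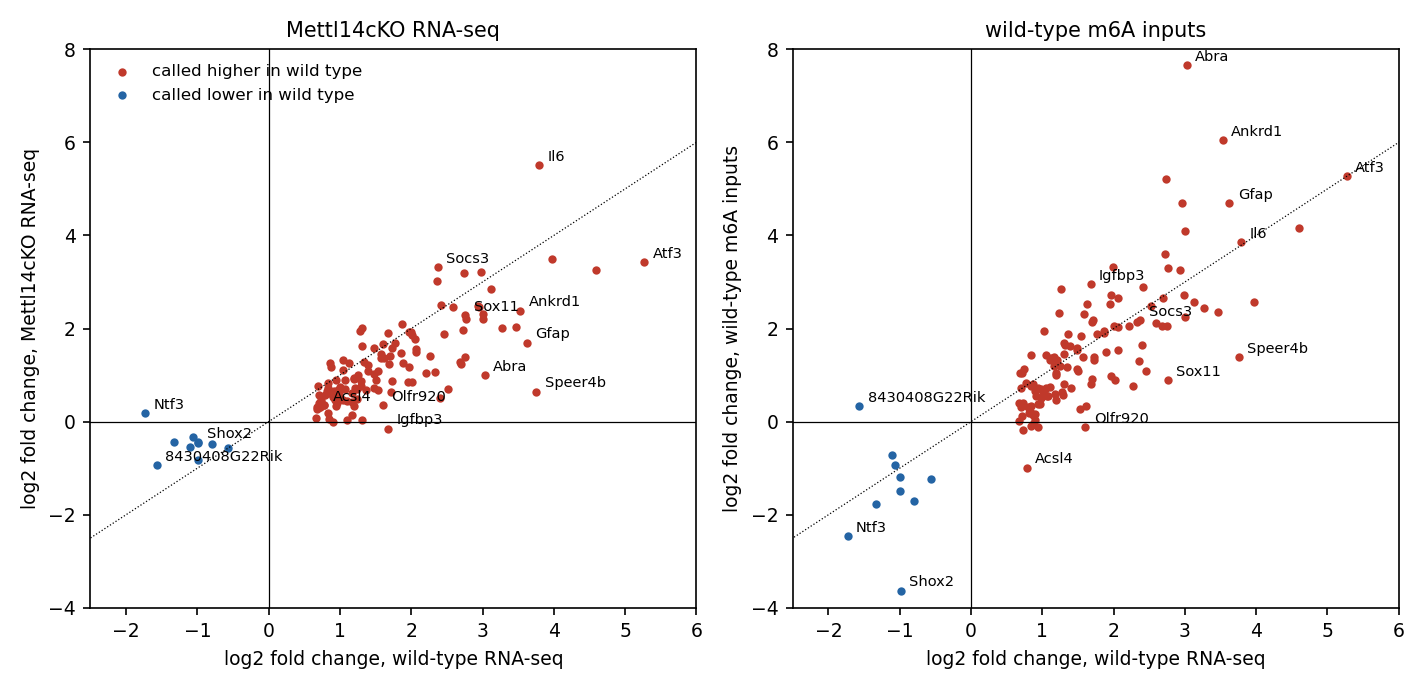
Log2 fold change of the 126 genes called higher (red) and 10 called lower (blue) in the wild-type RNA-seq comparison (horizontal axes) against the same gene in Mettl14cKO RNA-seq (left) and in the wild-type m6A inputs (right); the dotted line marks equality. Red points lie above 0 for 124 genes on the left and 120 on the right.

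m6A, a methyl mark on adenosines of messenger RNA, was listed by miCLIP at 14446 sites in naive and 18677 sites in lesioned ganglia, 1 library each. Of the 126 genes that rose, 64 held a site in either list (50.8%), against 5882 of 13259 genes tested (44.4%). In the naive list 19.8% of them had a site, against 31.9% of genes tested, and in the list of lesioned ganglia 48.4%, against 37.0%. Jun had 19 naive and 25 lesioned sites and Cnst 17 and 18, while Atf3 had 0 and 15, Gfra1 0 and 13 and Flrt3 1 and 11. Among genes tested, the share with a site rose with transcript level, from 26.7% under 3 CPM to 61.6% at 100 CPM or more. Among the genes that rose it was 30% and 69.6% in the same 2 level classes. The part of transcript level in the difference between lists was not tested. With 1 library per condition there is no replicate check of a site.

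Several of the genes that rose are neighbours on a chromosome. In the GRCm38.p6 gene table, 11 pairs of genes that follow each other among the called genes of a chromosome lay within 500 kb: Ccl2 with Ccl7 (8.3 kb apart) and Ccl7 with Ccl12 (54.3 kb) on chromosome 11, Saa1 with Saa2 (8.7 kb) and Tph1 with Saa1 (68.0 kb) on chromosome 7, Serpinb1a with Serpinb1c (28.0 kb) on chromosome 13, Hsd17b7 with Uap1 (172.0 kb) on chromosome 1, and Stom with Ggta1 (63.2 kb) on chromosome 2 among them. The Ccl, Saa and Serpinb1 neighbours are paralogs. No such count was made for other genes tested, so whether 11 pairs is more than gene density gives was not tested.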

How the data were processed

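Total RNA of flash-frozen ganglia was taken up in Trizol, poly(A) RNA was selected and libraries were made by Smart-seq2, per the labels' protocols. The authors deposited raw read counts per gene symbol. The submitters' processing notes name Trimmomatic, STAR, DESeq2 and build mm10, with no role for each; which read counter was used, and whether it kept strand, is not stated in these sources. The deposited miCLIP lists give 1 m6A site per line, of which only positions were used, and they were called by the authors from 1 library per condition. Genes were filtered with filterByExpr, scaled by TMM and fitted in R 4.3.3 with edgeR 4.0.16 (quasi-likelihood test) over all 12 RNA-seq libraries as 4 groups of 3, so that the spread was shared, with the wild-type contrast adjusted by Benjamini-Hochberg over 13291 genes. CPM are counts per 1000000 of TMM-adjusted totals, which ran from 6630850 to 12639160 counts before adjustment and limit what genes of a few CPM can show. Standard errors were derived from the fold change and the test's F value.

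The same script was tested on simulated counts with 2 fold sizes. The input libraries were fitted in the same way, together with the pulldown libraries of their series. Alternatives were DESeq2 1.42.0, other scalings and filters, a Y-linked covariate, a replicate block, the wild-type libraries alone, and leaving out each library. The comparison, the gene lists and the tests were chosen with earlier results of these data known, so a count or a median over a list is a description. Genes named were those called, the 8 members of smallest p in a list, the 25 of smallest p on the lower side, and cell markers, and a few of them are not reported here. Replicate numbers do not pair the libraries: same-numbered libraries had correlated deviations of −0.01, 0.57 and 0.06. Positions and promoters come from RefSeq tables on GRCm38.p6, in which 12703 of the genes tested matched by symbol, 556 by synonym and 32 not at all.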

Additional observations from a re-analysis of the deposited data

How the results depend on the processing

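The counts of 126 genes higher and 10 lower ran from 60 to 130 and from 1 to 14 when 1 wild-type library was left out. With no filter on low counts they were 232 and 24, of which 124 and 9 were shared with the main result. DESeq2's Wald test gave 184 and 18, among them all 126 and all 10. With only the 6 wild-type libraries in the fit they were 96 and 1. Library totals without a composition factor gave 92 and 7 and moved the median of all genes to −0.07. DESeq2 size factors gave 120 and 9, a mean of at least 5 CPM 104 and 9, and the Y-linked covariate 138 and 12. The cause of these differences was not tested, beyond the smaller number of samples or larger number of genes that some settings have by construction. No named gene turned direction in any of these settings. The deepest library held 12639160 and the shallowest 6630850 counts, so changes in genes of a few CPM were hard to detect.

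With the replicate number as a replicate block, 145 genes were higher and 10 lower, of which 121 and 9 were shared, and 6 of the named genes lost and 12 gained the call. The numbers do not pair the libraries, since only same-numbered libraries 2 correlated (0.57) and SNLD1 library 1 correlated best with naive library 3 (0.45).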
